A study of Mus musculus with 12 samples.

Results

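H6pd and 5 genes that handle its substrate or use its product in the endoplasmic reticulum (ER) were followed in mouse muscle by every probe set that carried 1 of their symbols and no other. Each of the 6 genes (H6pd, Hsd11b1, Slc37a4, Slc37a1, Slc37a2 and G6pc3) was read by 1 such probe set, 6 of the 45101 on the array. The probe sets that carried only 1 symbol covered 18193 genes. The samples were soleus and tibialis anterior (TA) of 4-week-old weaned mice, either H6pd knockout (KO) or wild type (WT). Each of the 4 combinations of genotype and muscle had 3 arrays, titled as biological replicates. The labels name no strain, allele, deleted exon or promoter for the knockout, and the design text says that myopathy was not yet overt on histology at this age. They do not say whether the 2 muscles of a mouse were both used. RNA came from whole muscle, so fewer cells of a type and less RNA per cell cannot be told apart.

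H6pd encodes hexose-6-phosphate dehydrogenase, which sits in the ER lumen and oxidises glucose-6-phosphate there, so that NADPH is made inside the organelle. The ER membrane hardly lets NADPH pass, and Hsd11b1, the steroid reductase 11beta-hydroxysteroid dehydrogenase type 1, draws on this pool when it turns inactive 11-keto steroids back into active glucocorticoid. Slc37a4 is the carrier that brings glucose-6-phosphate into the ER lumen in exchange for phosphate. Slc37a1 and Slc37a2 are related phosphate-linked exchangers, and G6pc3 is the widely expressed glucose-6-phosphatase that hydrolyses the same sugar phosphate in the lumen and so competes with H6pd for it.

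The 2 genes that differed most clearly between muscles were Slc37a4 and G6pc3, and the bases upstream of their RefSeq starts (GRCm38.p6) are shown. Each line gives the 250 bases before the start that lies at the 5′ end of the gene's annotated span, 5′ to 3′ on the strand of the gene. Capitals mark exact matches on either strand to 4 short motifs that were picked after the values were known: the E-boxes CAGCTG, favoured by myogenic factors, and CACGTG, the half-site TGTTCT of the glucocorticoid receptor, and TGACGT, the core of elements read by CREB and ATF proteins.
Slc37a4, plus strand, chr9:44396696-44396945: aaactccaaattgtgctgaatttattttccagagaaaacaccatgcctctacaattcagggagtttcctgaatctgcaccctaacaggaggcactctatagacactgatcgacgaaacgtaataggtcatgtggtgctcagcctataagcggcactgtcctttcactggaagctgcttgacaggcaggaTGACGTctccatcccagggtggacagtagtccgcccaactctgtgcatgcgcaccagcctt
G6pc3, plus strand, chr11:102189449-102189698: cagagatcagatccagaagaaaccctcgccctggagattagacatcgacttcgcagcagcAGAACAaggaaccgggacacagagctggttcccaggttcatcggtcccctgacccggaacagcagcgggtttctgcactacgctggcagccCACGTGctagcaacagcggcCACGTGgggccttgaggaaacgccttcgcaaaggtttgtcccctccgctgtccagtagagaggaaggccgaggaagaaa

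The Slc37a4 window held 1 TGACGT, beginning 61 bases before the start. RefSeq lists 3 starts for Slc37a4, and the 2 others lie 153 and 1408 bases inside the span. The window before the most downstream of these held 1 CAGCTG at 199 bases. The G6pc3 window held 2 CACGTG, at 99 and 79 bases, and 1 TGTTCT on the opposite strand. Of 32851 mouse promoter windows of the same length, 13% held CAGCTG, 6.02% CACGTG, 16.1% TGTTCT and 6.47% TGACGT. The Slc37a2 window, also at the 5′ end of its span, held none of the 4. The starts listed for H6pd, Hsd11b1 and Slc37a1 lie 5787, 21685 and 1089 bases inside their gene spans, so the windows before them are internal to the genes and are not shown.

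Values are log2 signals after quantile normalization, and a probe set was tested where it exceeded the 40th percentile of its array (log2 2.76) on at least 3 arrays. This threshold lies in the floor of the table. Of the 6 probe sets 5 passed, and Slc37a1 did not. Differences were tested with limma in 1 linear model over 22648 probe sets and all 12 arrays, 2-sided, with Benjamini-Hochberg adjustment over all probe sets and a threshold of 0.05. The median standard error of a comparison of groups over all probe sets was 0.185. Muscle identity was clear: all 8 slow fibre markers, such as Myh7, the slow myosin heavy chain, were higher in WT soleus than in WT TA by limma, at a median log2 difference of 7.55.

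**Figure D1:**
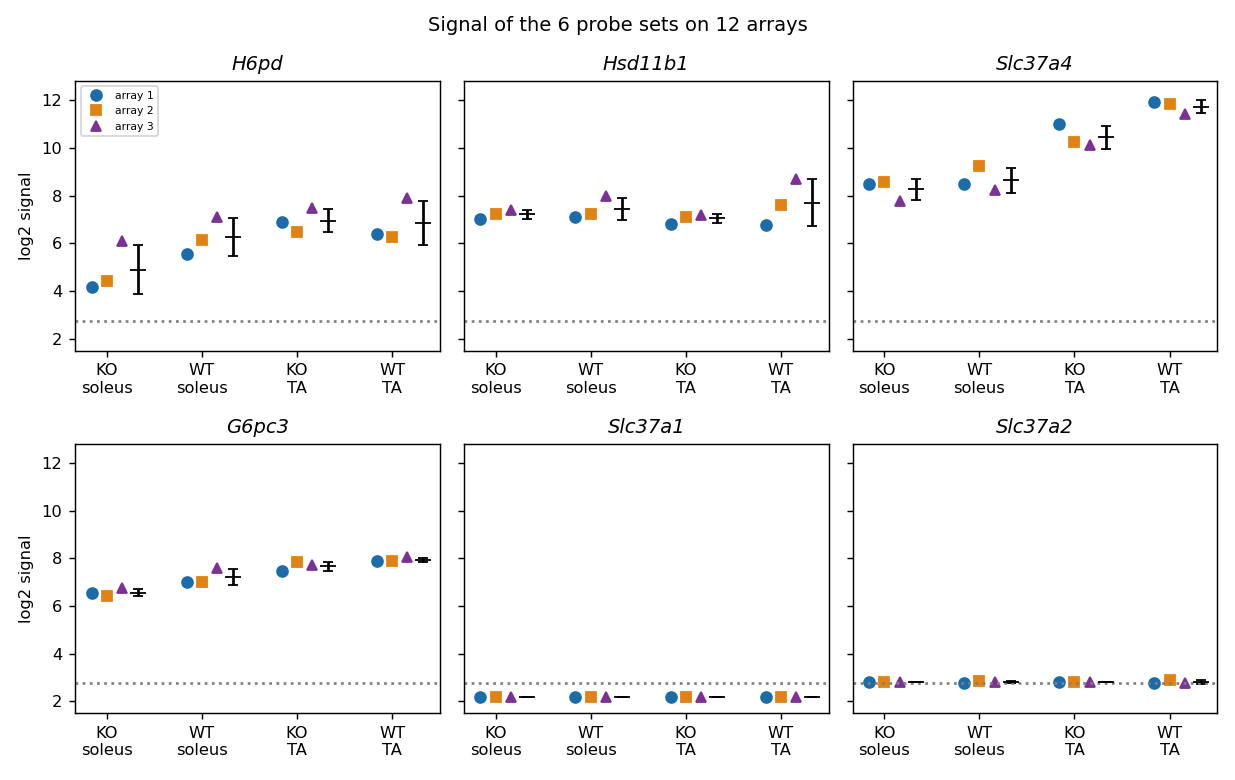
Log2 signal of the 6 probe sets on the 12 arrays, with the array number given by colour and shape, the group mean and SD (n = 3) as a black bar, and the 40th percentile of the arrays as a dotted line. Slc37a4 lies near 8 to 9 in soleus and 10 to 12 in TA, H6pd is lowest on KO soleus arrays 1 and 2, and Slc37a1 and Slc37a2 stay at the floor.

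The enzyme that gives the knockout its name is encoded on chromosome 4 (149979474 to 150009023, GRCm38.p6). H6pd signal on the KO soleus arrays was log2 4.19, 4.41 and 6.10, against 5.57, 6.12 and 7.11 on the WT soleus arrays. Arrays 1 and 2 of KO soleus lay below every other array, whereas array 3 lay inside the WT range, so that the groups overlapped. The difference was -1.36 (SE 0.63, 95% interval -2.76 to 0.035, adjusted p = 0.654 by limma), which did not pass the test. Between arrays of equal number it was -1.38, -1.71 and -1.01. In TA the KO arrays read 6.89, 6.49 and 7.49 and the WT arrays 6.37, 6.26 and 7.92. The KO range lay inside the WT range, and the difference of 0.11 (SE 0.63, adjusted p = 0.972 by limma) had an interval of -1.29 to 1.51, so a 2-fold loss and a 2-fold gain are both within it. It became -0.16 without the third KO array, and -0.13 and -0.19 without the first and the second WT array. The probe set lay above the filter threshold on all 12 arrays, KO arrays included. Neither the labels nor the files place the probe set inside or outside the deleted sequence, so these values do not check the genotype.

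From low to high, mean H6pd signal ran from KO soleus (4.90 ± 1.04, SD, n = 3) over WT soleus (6.27 ± 0.78) and WT TA (6.85 ± 0.93) to KO TA (6.96 ± 0.50). No 2 neighbours in this order differed past the test. The ends of the order, KO soleus and KO TA, did not overlap: the difference was -2.05 (SE 0.63, 95% interval -3.45 to -0.66), 4.16-fold lower in KO soleus, with adjusted p = 0.0888 by limma. With the replicate number as a block the same difference passed (SE 0.25, adjusted p = 0.00238 by limma). Without the 4 arrays numbered 3 it was -2.39 (adjusted p = 0.00772 by limma). H6pd was highest on array 3 in all 4 groups, so both settings take out much of its own spread within groups. They are therefore no independent support for the difference. Over all 18 other settings the difference of KO soleus from KO TA lay between -2.66 and -1.56, with adjusted p of up to 0.275 by limma. The highest was without the first KO soleus array, and 13 of the 18 did not pass. WT soleus and WT TA differed by -0.58 (SE 0.63, adjusted p = 0.603). The KO effect in soleus minus that in TA was -1.47 (SE 0.89, 95% interval -3.45 to 0.51, adjusted p = 0.947), so a different H6pd response in the 2 muscles was not shown.

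Slc37a4, the carrier that supplies glucose-6-phosphate to the ER lumen (chromosome 9, 44396946 to 44402966), was the member with the largest contrast between muscles. Its signal was log2 8.47, 9.24 and 8.24 on the WT soleus arrays, against 11.93, 11.85 and 11.41 on the WT TA arrays. No soleus array came within 2 log2 units of a WT TA array. WT soleus was 8.47-fold lower (log2 difference -3.08, SE 0.33, adjusted p = 0.000608 by limma). Among KO arrays soleus read 8.49, 8.55 and 7.76 and TA 10.99, 10.24 and 10.11, again without overlap. KO soleus was 4.53-fold lower than KO TA (-2.18, SE 0.33, adjusted p = 0.00463 by limma). Both muscle differences passed under all 18 other settings run for them, at -3.38 to -2.79 in WT and -2.35 to -1.91 in KO.

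KO TA carried less Slc37a4 signal than WT TA on every array, although the test did not call it. The highest KO TA array (10.99) lay below the lowest WT TA array (11.41). The difference was -1.29 (SE 0.33, 95% interval -2.02 to -0.55), or 2.44-fold lower in KO TA, with adjusted p = 0.0834 by limma, and it was the 831st smallest p among 22648 probe sets. Groups that do not overlap were common in this comparison, at 21.7% of probe sets tested. Between arrays of equal number the difference was -0.94, -1.61 and -1.31. With only probe sets of mean log2 above 5 the difference passed (adjusted p = 0.0495 by limma). With the replicate number as a block it also passed (SE 0.23, adjusted p = 0.0245 by limma). The block pairs KO and WT arrays, which come from different mice, by a number whose meaning the labels do not give. This block also raised the number of probe sets called over the whole table in this comparison. Leaving out single TA arrays gave -1.56 to -1.12 with adjusted p from 0.0514 to 0.255.

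In soleus the KO and WT arrays of Slc37a4 overlapped, with a difference of -0.38 (SE 0.33, 95% interval -1.12 to 0.35, adjusted p = 0.93 by limma). Array 1 was as high in KO (8.49) as in WT (8.47). The difference between the KO effects in the 2 muscles was 0.90 (SE 0.47, 95% interval -0.14 to 1.95, adjusted p = 0.947), so a larger KO difference in TA than in soleus was not shown. Averaged over both muscles the KO difference was -0.83 (SE 0.23, adjusted p = 0.0908), and with the block it passed (adjusted p = 0.0263). This average counts a mouse more than once if both of its muscles were used.

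Slow fibre markers also differed in mean between the TA groups, none past the test. The mean was higher in KO TA than in WT TA for all 8, at a median of 1.35 against -0.0043 for all probe sets. WT TA array 3 was low in these genes: without it 7 of 8 had a higher mean in KO TA, at a median of 0.50, and Myh7 differed by 0.22. Leaving out any other single TA array gave medians of 1.11 to 1.86, and 1 of the 8 passed without WT TA array 2. Of 8 fast fibre markers 1 had a higher mean in KO TA and none passed. Of 16 skeletal muscle markers 1 passed, against 2.02% of all probe sets. This was Myh2, a myosin heavy chain gene on neither fibre list. Myh2 rose in KO TA (1.65, SE 0.25, adjusted p = 0.0149 by limma). It was also higher in WT soleus than in WT TA (2.94, adjusted p = 0.000179 by limma). The summed unlogged signal of the slow fibre markers was 4426 to 7025 in KO TA and 1403 to 3874 in WT TA, against 308200 to 365800 in KO soleus and 310100 to 350000 in WT soleus. Tnni1, slow troponin I, read 7.63, 7.63 and 8.42 in KO TA against 7.04, 6.83 and 4.86 in WT TA. Both sets of arrays were thus far below soleus for these genes, and KO TA had the higher mean of the 2. The part of slow fibre RNA in the Slc37a4 difference was not tested.

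**Figure D2:**
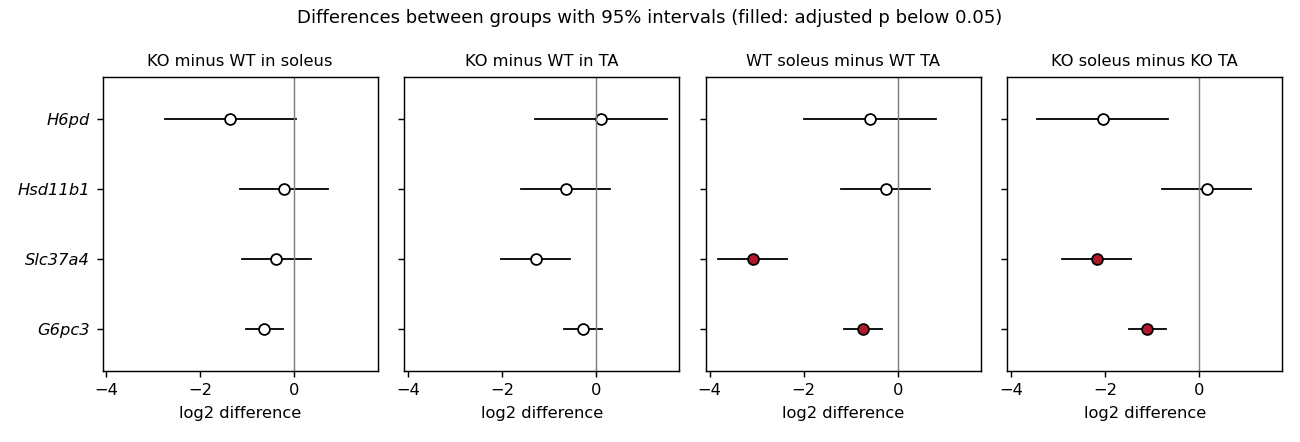
Log2 differences of the 4 members above the floor in 4 comparisons, with 95% intervals from limma; filled points passed the test at an adjusted p below 0.05. Slc37a4 and G6pc3 passed in both muscle comparisons, and no member passed between KO and WT.

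G6pc3, the phosphatase that removes glucose-6-phosphate in the ER (chromosome 11, 102189699 to 102194081), varied little between arrays of a group and followed the same order of muscles. Its signal was 7.03, 7.0 and 7.58 on WT soleus arrays and 7.88, 7.90 and 8.03 on WT TA arrays. The groups did not overlap, and WT soleus was 1.67-fold lower (log2 difference -0.74, SE 0.18, adjusted p = 0.0351 by limma). This call was lost on the table as deposited (-0.58, adjusted p = 0.0863), with median centring (-0.50, adjusted p = 0.145), in the fit on the compared arrays alone (adjusted p = 0.118) and without WT soleus replicate 1 or 2 or any 1 of the 3 WT TA replicates (adjusted p from 0.0806 to 0.126). In the KO, soleus read 6.54, 6.41 and 6.74 and TA 7.46, 7.83 and 7.71. KO soleus was 2.14-fold lower (-1.10, SE 0.18, adjusted p = 0.00654 by limma), and this call held under all 18 other settings, at -1.20 to -0.95.

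Between genotypes G6pc3 passed the test in neither muscle, although its arrays did not overlap in either. Of all probe sets tested, 11.2% did not overlap in soleus and 21.7% in TA. In soleus all 3 KO arrays (6.41 to 6.74) lay below all 3 WT arrays (7.0 to 7.58), a difference of -0.64 (SE 0.18, 95% interval -1.04 to -0.24, adjusted p = 0.342 by limma). In TA the KO arrays (7.46 to 7.83) lay below the WT arrays (7.88 to 8.03) by -0.27 on average (SE 0.18, 95% interval -0.67 to 0.12, adjusted p = 0.53 by limma). Averaged over both muscles the difference was -0.46 (SE 0.13, adjusted p = 0.0884), which passed with the block (adjusted p = 0.0363). The effects in the 2 muscles differed by -0.36 (SE 0.25, 95% interval -0.93 to 0.20, adjusted p = 0.947).

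Hsd11b1, which uses the NADPH that H6pd makes (chromosome 1, 193221640 to 193264045), was detected in all 4 groups and passed in no comparison. Its signal was 7.04, 7.21 and 7.39 in KO soleus and 7.09, 7.25 and 7.97 in WT soleus, a difference of -0.22 (SE 0.42, 95% interval -1.17 to 0.72, adjusted p = 1 by limma). In TA it was 6.83, 7.12 and 7.20 in KO and 6.75, 7.62 and 8.71 in WT. The difference there was -0.64 (SE 0.42, 95% interval -1.59 to 0.30, adjusted p = 0.535 by limma), and without WT TA replicate 3, the highest array of all, it was -0.13. The 3 KO arrays of either muscle lay close together (SD 0.17 in KO soleus and 0.20 in KO TA), while the WT arrays were wider (0.47 in WT soleus and 0.98 in WT TA). Soleus and TA differed by -0.26 in WT and 0.16 in KO, with adjusted p = 0.751 and 0.891. Adipose tissue is a known site of Hsd11b1 expression. On WT TA array 3, where Hsd11b1 was highest, the adipocyte markers were mixed. The adipocyte hormone gene Adipoq (log2 2.59) and Fabp4 (13.43) stood at their lowest of all arrays. Lpl (13.90) was the highest of the TA arrays and Cidea (3.79) the highest of the WT TA arrays. Cidec, Pck1 and Car3 lay within the range of the other WT TA arrays, and Retn was at the floor. Adipoq was higher in WT soleus than in WT TA (4.61, SE 1.06, adjusted p = 0.0289 by limma). Of the 8 adipocyte markers tested, 7 had a higher mean in WT soleus than in WT TA, 3 of them past the test. Car3 fell (-0.34, adjusted p = 0.0327 by limma), and Hsd11b1, at -0.26, did not pass. Over the 8 adipocyte markers tested of 12, the summed unlogged signal was 96990 to 111800 in KO soleus and 94320 to 110500 in WT soleus, and 77860 to 85920 in KO TA and 77120 to 84510 in WT TA, and Lep and Ucp1 were at the floor on every array. Car3, Lpl and Fabp4, of which Car3 and Lpl are also abundant in muscle fibres, made up 97.8% to 99.9% of these sums, which therefore say little about adipocytes. The other 5 markers summed to 707 to 2410 in KO soleus and 387 to 1780 in WT soleus, and to 198 to 225 in KO TA and 44.1 to 121 in WT TA. None of the 8 passed between KO and WT soleus and 1 between KO and WT TA, against 0.0221% and 2.02% of all probe sets. The 1 that rose in KO TA was the lipid droplet gene Cidea (2.44, SE 0.51, adjusted p = 0.0437 by limma). The Cidea call was lost, with adjusted p from 0.0881 to 0.147, without any single TA array other than KO TA array 1. The part of adipocyte RNA in the Hsd11b1 values was not tested.

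The remaining carriers gave no readable level. Slc37a1 (chromosome 17, 31295135 to 31350709) stayed between log2 2.17 and 2.18 on all 12 arrays and was not tested. Slc37a2 (chromosome 9, 37229149 to 37255738), known from macrophages, passed the filter but only ranged from 2.78 to 2.91, at the floor of the table, and its differences lay between -0.018 and 0.021 in all 6 comparisons. The signal of these probe sets is not well above background, so no fold change is given for them. Of 15 macrophage and other myeloid markers 13 passed the filter. Csf1r, the receptor of a macrophage growth factor, was at 8.33 or more on every array. Itgam stayed at the floor (2.45 to 2.51), and Cd14 exceeded the filter threshold on only 2 arrays. Of genes outside the 6, Slc37a3, a further member of the carrier family, read 6.00, 6.07 and 6.53 in KO soleus against 5.66, 6.03 and 5.63 in WT soleus, and 6.30, 6.59 and 6.89 in KO TA against 5.81, 5.98 and 6.10 in WT TA. Its difference was 0.42 in soleus (SE 0.21, adjusted p = 0.697 by limma) and 0.63 in TA (SE 0.21, adjusted p = 0.17 by limma). In TA the Slc37a3 groups did not overlap, as held for 21.7% of all probe sets tested. Slc37a3 had 2 probe sets, and only the brighter is given. G6pc, the phosphatase of liver and kidney, was at the floor at 1.95, and G6pc2, that of pancreatic islets, at 2.82 to 2.87.

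Across the members, 0 of the 5 tested passed between KO and WT in soleus and 0 of 5 in TA, where 0.0221% and 2.02% of all probe sets passed. At an unadjusted p under 0.05 there were 1757 probe sets in soleus and 3455 in TA. Arrays did not overlap for 1 of 5 members in soleus and 2 of 5 in TA, against 11.2% and 21.7% of all probe sets. Between muscles 2 of 5 passed in WT and the same 2, Slc37a4 and G6pc3, in KO, against 7.7% and 6.6% of all probe sets. Both were lower in soleus. Of all 22648 probe sets tested, 4.4% in WT and 3.49% in KO passed and were lower in soleus. These were 997 of the 1745 that passed in WT and 790 of the 1494 in KO, so most calls had this direction. Arrays did not overlap for 2 of 5 members in WT and 3 of 5 in KO, against 33% and 27.7%. These comparisons share arrays and are not independent. For the difference of the KO effects 0.0353% of probe sets passed and no member, and for the KO average 3.41% and no member.

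The array number ran through these genes in all groups. H6pd and Hsd11b1 were highest on array 3 in 4 of 4 groups, and G6pc3 in 3 of 4, while Slc37a4 was lowest on array 3 in 4 of 4. Of all probe sets tested, 13.7% were highest on array 3 in all 4 groups and 9.68% lowest, so the pattern was widespread. Array 3 exceeded its group mean in H6pd by 1.20 in KO soleus, 0.84 in WT soleus, 0.53 in KO TA and 1.07 in WT TA. Each group held 1 such array, which widened the spread within groups. What set these arrays apart is not given in the labels.

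**Figure D3:**
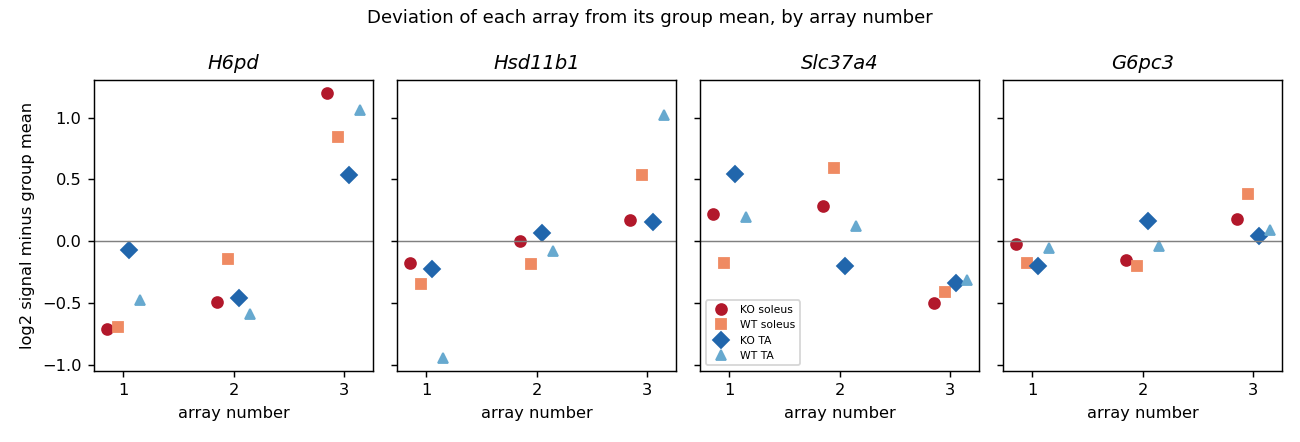
Log2 signal of each array minus the mean of its group, against the array number, for the 4 members above the floor. H6pd lies above 0 on array 3 in every group and Slc37a4 below 0, and the 2 outermost Hsd11b1 points, WT TA arrays 1 and 3, lie near -1 and 1.

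For H6pd, G6pc3 and Hsd11b1, but not for Slc37a4, genes with the most similar pattern were sought over the 12 arrays by Pearson correlation, as a description, since arrays share muscle, genotype and number. Closest to H6pd were Tctn1 (r = 0.969, but within log2 3.94 to 4.08, near the floor), Psmd3, a proteasome subunit (0.956), Usp19, a deubiquitinase (0.952), Polrmt, the mitochondrial RNA polymerase, and Lrsam1 (both 0.946). Closest to G6pc3 was Tigar, a phosphatase of fructose bisphosphates (0.967), followed by Cyyr1 (0.965, within log2 3.78 to 5.26), Ubl7 (0.957), the glycolytic enzyme Aldoa (0.956) and Ttc19 (0.955). Closest to Hsd11b1 were Usp53 (0.936), Zc3h6 (0.934), Mrps6 (0.932), Eri2 (0.931, but within log2 2.93 to 3.62, near the floor) and Eif5b (0.930).

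Enzymes that make or spend glucose-6-phosphate outside the ER, with others of the glycogen and pentose phosphate pathways beside them, gave the setting for the carrier. Of 17 such genes 13 were tested, and 0 passed between KO and WT in either muscle, at a median of -0.092 in soleus and 0.15 in TA. Between muscles 4.4% of all probe sets tested passed as lower in soleus in WT and 3.49% in KO. Of the 13 genes 3 fell in WT soleus relative to WT TA and 0 rose, and the same 3 fell in KO soleus relative to KO TA. These were Pgm1, the phosphoglucomutase that interconverts glucose-1-phosphate and glucose-6-phosphate (-1.67, SE 0.14, adjusted p = 0.000167 by limma), the related Pgm2l1 (-2.32, SE 0.34, adjusted p = 0.00366) and Pygm, the glycogen phosphorylase of muscle (-1.20, SE 0.23, adjusted p = 0.0115). Their differences between KO soleus and KO TA were -1.92, -1.96 and -1.54. The list as a whole did not follow them: 10 of 13 had a higher mean in WT soleus than in WT TA, at a median of 0.11. Among the 10 was Hk3, which lay at the floor in both (log2 2.89 and 2.87). The smallest p-values between genotypes in soleus were those of Pygm (-0.55, adjusted p = 0.584) and Pgls, the lactonase of the cytosolic pentose phosphate pathway (-0.40, adjusted p = 0.746). In TA they were those of the hexokinase Hk1 (0.38, adjusted p = 0.28) and Pgls (-0.50, adjusted p = 0.289).

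Downstream of Hsd11b1, the glucocorticoid receptor gene Nr3c1 averaged 10.70 in KO soleus and 10.43 in WT soleus, and 10.49 in KO TA and 10.34 in WT TA, neither pair past the test. Of 23 genes for steroid handling 18 were tested. None passed in KO soleus and 1 in KO TA, against 0.0221% and 2.02% of all probe sets. The 1 that fell in KO TA was Hsd17b10, a mitochondrial dehydrogenase that also acts in branched-chain amino acid breakdown (-0.77, SE 0.16, adjusted p = 0.039 by limma). The list medians were 0.035 in soleus and 0.0094 in TA. In soleus the smallest p-values were those of Dhrs7 (0.57, adjusted p = 0.181) and Hsd17b10 (-0.58, adjusted p = 0.324). Hsd11b2, which runs the opposite reaction to Hsd11b1 in kidney, lay at the floor. Of 24 glucocorticoid receptor targets 22 were tested. Their medians were -0.20 in KO soleus and -0.14 in KO TA, against 0.00016 and -0.0043 for all probe sets. Of the 22 targets 6 had a higher mean in KO soleus and 7 in KO TA. In KO TA 1 of the 22 passed, against 2.02% of all probe sets. This was Gadd45g, a growth arrest gene, which fell (-2.11, SE 0.28, adjusted p = 0.0111 by limma). Sgk1, a kinase induced by glucocorticoids, passed in neither muscle, at -1.04 in KO TA (adjusted p = 0.0518 by limma) and -0.81 in KO soleus (adjusted p = 0.349). Averaged over both muscles it fell by 0.92 on the log2 scale (adjusted p = 0.019 by limma). In that average 2 of the 22 targets passed, Sgk1 and Gadd45g, against 3.41% of all probe sets. The average counts a mouse more than once if both of its muscles were used. A link of these values to Hsd11b1 was not tested. Fkbp5, a chaperone partner of the receptor that glucocorticoids induce, differed by -0.80 in KO soleus and -0.72 in KO TA, with SE 0.54 in either, and did not pass. Other targets went the other way. Cdkn1a had the largest positive difference in KO TA (1.39, SE 0.60, adjusted p = 0.308 by limma), larger in size than that of Sgk1. Angptl4 was higher in KO soleus (0.67) and in KO TA (0.66), and neither gene passed.

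**Figure D4:**
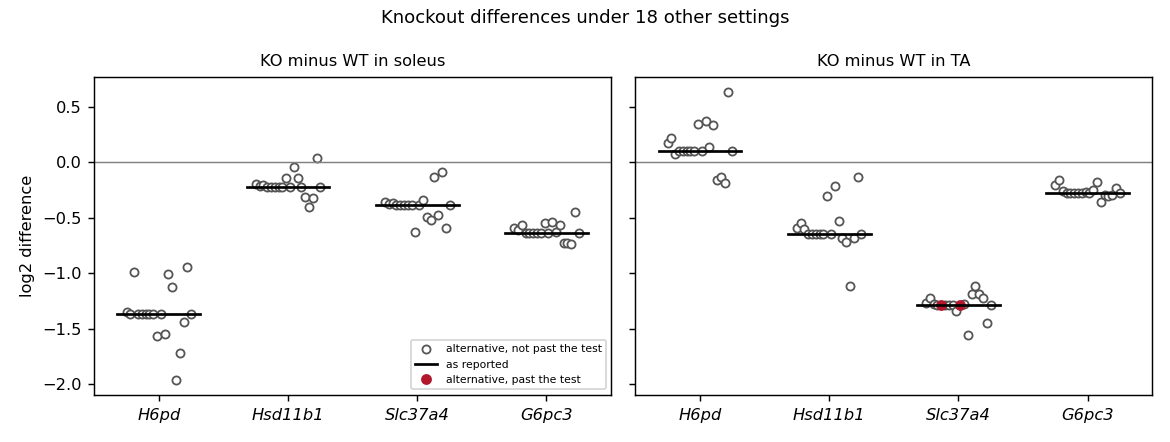
Log2 differences between KO and WT of the 4 members above the floor in soleus and TA, as reported (black line) and under 18 other settings (circles, filled where the adjusted p was below 0.05). Slc37a4 in TA stays between -1.56 and -1.12 and G6pc3 in soleus between -0.74 and -0.45, while H6pd in TA takes both signs.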

How the data were processed

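Total RNA of soleus and TA was extracted with Trizol, labelled with biotin and hybridised to one-colour Affymetrix arrays, per the labels. The deposited table holds log2 signal for 45101 probe sets on 12 arrays, from 0.89 to 16.36. The submitters' processing notes name MAS5 without version or role, and the method of summary behind the values is stated by none of these sources. Array scales, as trimmed means of unlogged signal, spanned a ratio of 1.11, and the arrays were quantile normalized. Groups and numbers came from the sample titles. A platform table gave 1 symbol to 34945 probe sets, and these were filtered and tested, 22648 in all, in R 4.3.3 with limma 3.58.1 (4 group means, eBayes with a variance trend), tested on simulated data. Coordinates are those of RefSeq genes on GRCm38.p6, matched by gene identifier. The members and lists were chosen with earlier results of these data known. All members are named, lists by at most 4 genes that passed or else by the 2 with the smallest p, and similar genes as the 5 highest correlations for 3 members. Other ER glucose-6-phosphate genes are given as values. Marker genes, Nr3c1, Fkbp5, Cdkn1a, Angptl4, Hk3, Sgk1 where not past the test, and Hsd11b2 were named outside this rule, after their values were seen. With 3 arrays against 3 an exact permutation test cannot go below p = 0.1. The labels do not say that replicates came from separate mice, so p-values measure the spread between these samples.

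Whether equal array numbers pair the samples was read from how far their deviations from the group means correlate. It lay between 0.1003 and 0.6679 for equal numbers in the 4 pairwise comparisons, above the limit of 0.1 in every pair, the lowest being number 2 of KO and WT soleus. The arrays numbered 3 stood apart in all groups, and with 3 arrays in a group this also sets the deviations of the others, so whether the numbers mark shared animals or days was not tested. The pairing, and each call gained with the block, rests on these values and not on the labels, and mice of different genotype cannot be the same animal. Alternatives were other scalings, a pseudocount of 16, other filters, 1 probe set per gene, other variance models, array weights, the replicate block, and other sets of arrays.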

Additional observations from a re-analysis of the deposited data

How the results depend on the processing

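Over 472 recalculated differences of the 4 members above the floor, 448 kept their direction and their side of the threshold, 8 lost a call, 10 gained one and 6 changed sign. The 8 lost calls were all of G6pc3 between WT soleus and WT TA. The number of members past the test in that comparison was then 1 on the table as deposited, with median centring and in the fit on the compared arrays alone, and 1 to 2 when single arrays were left out. The scaling alternatives did not otherwise change a call. Between KO and WT TA it was 1 with probe sets of mean log2 above 5 and 1 with the replicate block, in both cases Slc37a4, while the block raised the probe sets called from 458 to 1231 of 22648. For the KO average it was 1 with array weights and 2 with the replicate block (Slc37a4 and G6pc3). H6pd between KO soleus and KO TA passed with the replicate block, with array weights (-2.37), with mean log2 above 5 (-2.05), without the arrays numbered 3 and without KO soleus replicate 3 (-2.66), and not under the 13 others (adjusted p of up to 0.275). H6pd was highest on array 3 in all 4 groups, so leaving these arrays out lowers its spread within groups. The replicate block changed no other call of a member; H6pd in KO soleus had SE 0.25 and adjusted p = 0.123. Signs turned only when single arrays were left out. The KO difference of H6pd in TA was then -0.19 to 0.64. For Hsd11b1 the KO difference in soleus was -0.40 to 0.044, positive without WT soleus replicate 3. Without WT TA replicate 3 Hsd11b1 turned between WT muscles, in a range of -0.73 to 0.25, and in the difference of effects, in a range of -0.090 to 0.89. The causes were not tested. The number of arrays limits precision, and Slc37a1 and Slc37a2, at the floor, carry no information on change.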
